A study of Mus musculus with 6 samples.

Results

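Immediate early genes are the first genes that a cell transcribes after it is stimulated, within minutes and without new protein synthesis. Calcium entry and MAP kinase signaling in neurons, and growth factors, cytokines or stress in other cells, act on factors that already sit at their promoters, and most of the resulting mRNAs are short-lived. In sensory neurons and the dorsal horn their products, c-Fos above all, have long been used as a sign of recent activity. Here 10 of them were followed in dorsal root ganglia (DRGs): *Fos*, *Fosb*, and *Junb*, whose proteins form the AP-1 transcription factor; *Egr1* and *Egr3*, zinc finger transcription factors; *Npas4*, a transcription factor induced by calcium in neurons; *Nr4a1*, an orphan nuclear receptor; *Arc*, a regulator of synaptic receptors; *Ier2*, a nuclear protein; and *Dusp1*, a phosphatase that switches MAP kinases off. They were taken by symbol from the 48440 rows of the deposited count table, and all 10 were found. Of these, 9 had enough reads to be tested, among 18593 genes tested in all, and *Npas4* did not.

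The RNA came from DRGs of male, wild-type mice. The L3/4 DRGs of 1 side were microinjected either with AAV5-*Gfp*, an adeno-associated virus that expresses green fluorescent protein (3 libraries), or with AAV5-*V1* in a mix with AAV5-*V2* (written AAV5-*V1+V2*, 3 libraries), whose cargo is the pair of variants of *NIS-lncRNA*, a long noncoding RNA that nerve injury induces. The labels give no nerve injury for either group. The deposited text places tissue collection at 5 weeks and the comparison at 4 weeks after microinjection. The study names CD1 mice for its DRG microinjections, and the labels of these libraries give no strain. Age, the promoter in the vectors, and the number of mice behind a library are not given in the sources used here, so that p-values measure the spread between libraries, which may in part be technical. Each group also received its own virus preparation, and preparation and transcript cannot be told apart.

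Total counts lay between 32025612 and 34764282 per library, and the ranges of the groups overlapped. The tissue label was checked with 15 genes of neurons, none of which was at 0 in all libraries. Among them was *Tubb3*, a neuronal tubulin, with 25261 to 48563 counts per library. The check shows RNA of neurons and does not by itself tell DRG from other neural tissue. Markers of skeletal muscle, a tissue next to the ganglion, were uneven: their summed level was 87.3, 1082, and 463 CPM (counts scaled to a library of 1000000) in AAV5-*Gfp* replicates 1, 2, and 3 and 339.9, 148, and 36.7 CPM in AAV5-*V1+V2* replicates 1, 2, and 3.

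The promoters of these genes are where activity reaches them, and those of *Fos* and *Junb*, the genes that passed the test below, are shown first, beside that of *Nr4a1*, which did not pass it. RefSeq sequences of GRCm38.p6 were at hand for 6 of the 10 genes. Each sequence covers the 250 bases before the start that RefSeq gives, read in the direction of the gene, and this start can differ from the outermost start in GENCODE M21: the *Nr4a1* window lies inside the GENCODE span of the gene (in no exon), and of the windows not printed, 250 bases for *Npas4*, 47 for *Dusp1*, and 6 for *Fosb* lie in exons of the gene itself. Capitals mark TGACG or its reverse complement CGTCA, the short form of the cAMP response element (CRE) to which CREB and related factors bind.

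*Fos*, chr12:85473640-85473889, plus strand: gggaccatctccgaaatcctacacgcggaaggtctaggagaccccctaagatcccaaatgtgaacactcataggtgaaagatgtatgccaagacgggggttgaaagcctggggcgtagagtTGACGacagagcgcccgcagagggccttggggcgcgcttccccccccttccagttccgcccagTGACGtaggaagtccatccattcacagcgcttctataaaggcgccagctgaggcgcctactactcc
*Junb*, chr8:84978749-84978998, minus strand: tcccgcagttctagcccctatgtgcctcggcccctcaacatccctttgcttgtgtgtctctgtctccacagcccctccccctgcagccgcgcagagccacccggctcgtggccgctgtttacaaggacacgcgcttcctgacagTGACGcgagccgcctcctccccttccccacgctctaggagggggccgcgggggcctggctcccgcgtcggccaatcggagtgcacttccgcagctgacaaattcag
*Nr4a1*, chr15:101266596-101266845, plus strand: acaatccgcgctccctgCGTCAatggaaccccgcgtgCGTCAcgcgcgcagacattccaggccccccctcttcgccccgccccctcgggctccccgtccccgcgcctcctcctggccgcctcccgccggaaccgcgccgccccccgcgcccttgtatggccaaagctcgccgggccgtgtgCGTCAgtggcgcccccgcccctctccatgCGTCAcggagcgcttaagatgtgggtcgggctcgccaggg

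The short element was found, on either strand, at 2 places in *Fos*, the nearer of them 66 to 62 bases before the start, at 1 place in *Junb*, and at 4 places in *Nr4a1*. It was also present in the windows of *Fosb* (1 place), *Npas4* (2 places), and *Dusp1* (3 places), and thus in 6 of the 6, where 17.8% of 32851 mouse promoter windows of the same length hold it. Of the 6, only *Dusp1* held the full palindrome TGACGTCA, 143 to 136 bases before the start, as did 1.55% of all windows. A palindrome counts as 2 overlapping places of the short form. The CArG box, the element of serum response factor, was in none of the 6 windows and in 1.47% of all, and these windows do not reach the more distant elements of early genes. A match of letters is a description and was not tested for binding.

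*Fos* was higher with AAV5-*V1+V2*. The longest coding transcript of the gene has 4 exons, and the gene spans chromosome 12 (GRCm38, plus strand) between 85473890 and 85477273. AAV5-*Gfp* replicates 1, 2, and 3 held 121, 139, and 132 of its reads, and AAV5-*V1+V2* replicates 1, 2, and 3 held 281, 335, and 236. The AAV5-*Gfp* libraries were close to each other, and the lowest AAV5-*V1+V2* library was well above the highest of them. Scaled by library size with TMM factors, this was 3.997 ± 0.241 CPM (SD, n = 3) against 8.49 ± 1.59 CPM (SD, n = 3), or 1.09 as log2 fold change, with a standard error (SE) of 0.16 and an adjusted p of 0.0144 (edgeR's quasi-likelihood test, p-values adjusted over all genes tested after Benjamini and Hochberg).

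*Junb*, the AP-1 partner that often accompanies c-Fos, was read 343, 300, and 198 times in AAV5-*Gfp* replicates 1, 2, and 3, compared with 656, 540, and 394 times in the AAV5-*V1+V2* replicates. The groups did not overlap, but both were wide, and AAV5-*V1+V2* replicate 3 (11.5 CPM) was near AAV5-*Gfp* replicate 1 (10.6 CPM). The log2 fold change was 0.89 (SE 0.24), and the adjusted p of 0.0492 in the same edgeR test was just under the threshold of 0.05. The single exon of *Junb* (chromosome 8, 84974484 to 84978718, minus strand) shares 173 bases, 7.52% of its length, with exons of *Prdx2* on the opposite strand. *Prdx2*, a peroxidase, had a log2 fold change of -0.20 (SE 0.10, adjusted p = 0.199), of the opposite sign to *Junb*, and whether counting used strand is not given in the sources used here.

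*Fosb* had few reads. It was counted at 18, 15, and 21 reads in the control libraries and at 31, 38, and 15 reads with AAV5-*V1+V2*, in the order of the replicates. The third AAV5-*V1+V2* library was among the AAV5-*Gfp* values, so that the groups overlapped. The log2 fold change of 0.60 had a standard error of 0.39 (adjusted p = 0.308). Without AAV5-*V1+V2* replicate 3 it was 0.92, with an adjusted p of 0.0696 by edgeR's test.

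Both zinc finger genes lay above their controls in every library without passing the test. *Egr1* had 178, 262, and 178 reads in the controls and 318, 342, and 272 with AAV5-*V1+V2*, and AAV5-*Gfp* replicate 2 (7.56 CPM) came close to AAV5-*V1+V2* replicate 3 (7.93 CPM). Its log2 fold change was 0.57 (SE 0.16, adjusted p = 0.0575). *Egr3*, from 70077203 to 70082614 on chromosome 14, had 52, 52, and 33 reads with AAV5-*Gfp* against 68, 78, and 70 with AAV5-*V1+V2*, a log2 fold change of 0.63 (SE 0.21, adjusted p = 0.0783). The AAV5-*V1+V2* libraries of *Egr3* were tightly grouped, at 2.04 to 2.34 CPM, and the spread was on the AAV5-*Gfp* side, at 1.06 to 1.61 CPM.

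*Ier2* had the second largest difference of the 9 genes, on few reads. It was counted at 28, 57, and 26 reads in the control libraries and at 99, 67, and 67 reads with AAV5-*V1+V2*. AAV5-*Gfp* replicate 2 stood apart in its group, at 1.64 CPM against 0.868 and 0.833 CPM. The log2 fold change was 1.05 (SE 0.32, adjusted p = 0.0647). Without that library it was 1.45, and its adjusted p of 0.0818 was still over the threshold. The same library held the largest summed level of skeletal muscle markers, and the part of muscle RNA in its *Ier2* and *Egr1* reads was not tested.

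*Nr4a1* and *Dusp1* had the smallest positive differences on ample reads. *Nr4a1* (chromosome 15, 101254269 to 101274795) had 533, 595, and 565 reads in the controls and 618, 813, and 723 with AAV5-*V1+V2*, a log2 fold change of 0.31 (SE 0.11, adjusted p = 0.0910). *Dusp1* had 379, 341, and 380 reads in the controls and 452, 530, and 446 with AAV5-*V1+V2*, a log2 fold change of 0.34 (SE 0.12, adjusted p = 0.101). For both, the groups were apart, the AAV5-*V1+V2* libraries being higher, and the upper ends of the 95% intervals were 0.57 and 0.63 on the log2 scale. In GENCODE M21 *Dusp1* also lies across *Ergic1* on the opposite strand, with 11 shared exon bases.

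*Arc* and *Npas4*, both induced in firing neurons, were not called or not tested. *Arc*, on chromosome 15 from 74669083 to 74672570, had 87, 97, and 74 reads in the controls and 72, 94, and 97 with AAV5-*V1+V2*. The groups lay on top of each other, at 2.62 ± 0.223 and 2.61 ± 0.368 CPM (SD, n = 3), with a log2 fold change of -0.01 and a 95% interval from -0.40 to 0.39 (adjusted p = 0.987). The sign of so small a difference changed with total counts in place of TMM (0.05). *Npas4* had 5, 3, and 2 reads in the controls and 7, 6, and 1 with AAV5-*V1+V2*, which is too few for a comparison at this depth, and it was not tested.

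**Figure D1:**
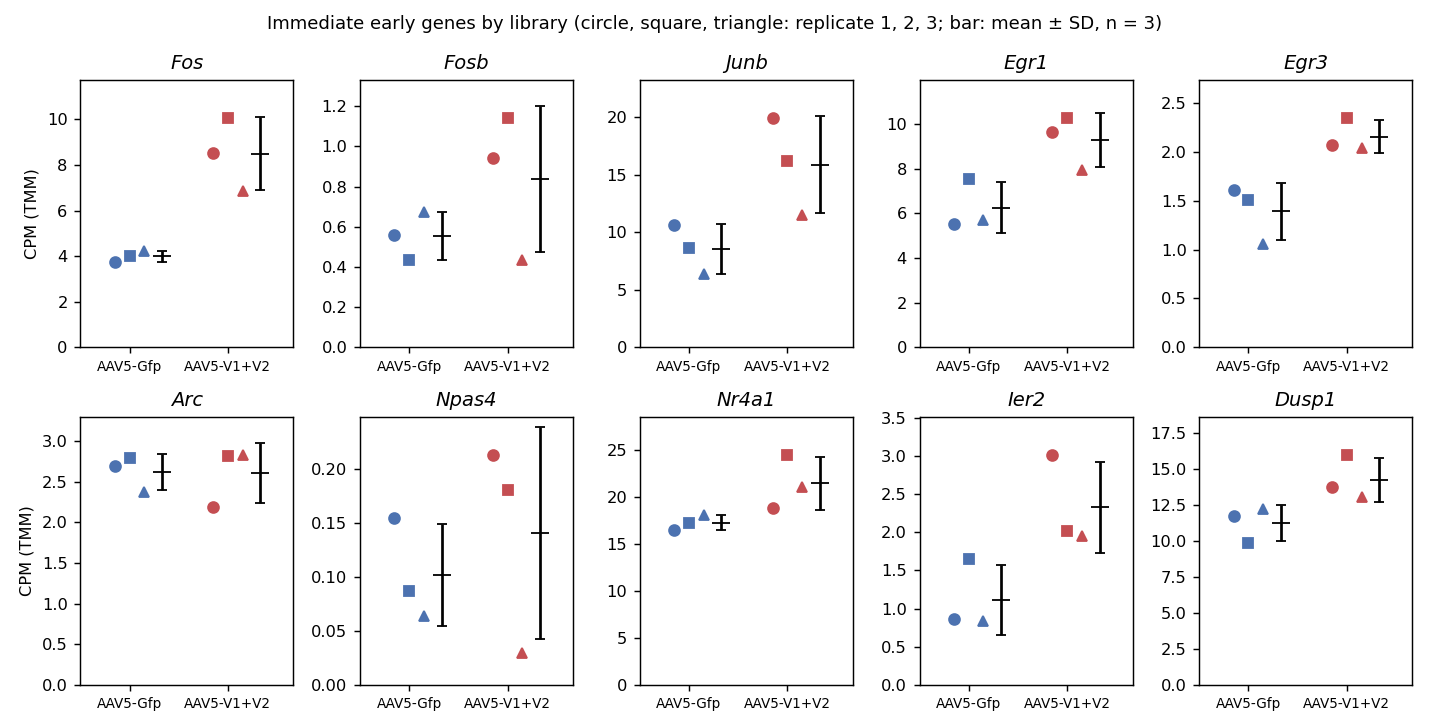
Level of each of the 10 genes, in CPM with TMM factors on a linear axis from 0, in the 3 AAV5-*Gfp* libraries (blue) and the 3 AAV5-*V1+V2* libraries (red), with replicates 1, 2, and 3 as circle, square, and triangle and bars for mean ± SD (n = 3). Red and blue points are apart for 7 genes and overlap for *Fosb*, *Arc*, and *Npas4*.

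Of the 9 genes tested, 2 (*Fos* and *Junb*) were thus higher with an adjusted p under 0.05, against 10.1% of all genes tested, and 0 were lower, against 5.27%. No gene of the 9 was lower at an unadjusted p under 0.05, and 0 were lower with DESeq2 or limma-voom. At an unadjusted p under 0.05, 7 of the 9 were higher, where 19.2% of all genes were. The same 7 had no overlap between groups, with every AAV5-*V1+V2* library higher, as had 23.4% of all genes. The log2 fold change was above 0 for 8 of the 9 genes, against 50% of all genes, and its median was 0.60 over the 9 genes and -0.0003 over all genes tested.

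The calls depended on the number and choice of libraries. *Fos* kept its call in 12 of 15 alternative analyses, with log2 fold changes from 0.96 to 1.23, and *Junb* in 7 of 15, with log2 fold changes from 0.70 to 1.09. Neither passed in a fit without AAV5-*Gfp* replicate 1 (adjusted p = 0.0518 for *Fos* and 0.0701 for *Junb* by edgeR's test), replicate 2 (0.0815 and 0.137), or replicate 3 (0.0875 and 0.153), fits in which 257, 12, and 15 genes of any kind were higher, against 1872 with all libraries.

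Per kilobase of annotated exon, a scale on which genes can be compared, *Nr4a1* had the highest level in AAV5-*Gfp* DRGs (4.92 ± 0.228 CPM per kb, SD, n = 3), above *Junb* (3.71 ± 0.932) and *Dusp1* (3.40 ± 0.375), which overlapped. *Fos* (1.70 ± 0.102) and *Egr1* (1.40 ± 0.252) overlapped as well, and so did *Arc* (0.858 ± 0.0730) and *Ier2* (0.733 ± 0.302). *Egr3* (0.315 ± 0.0665), *Fosb* (0.0888 ± 0.0192), and *Npas4* (0.0246 ± 0.0114) followed, each apart from the next. With AAV5-*V1+V2* the order changed at 2 places: *Junb* (6.90 ± 1.84) was above *Nr4a1* (6.11 ± 0.808), although their libraries overlapped, and *Ier2* (1.53 ± 0.390) was above *Arc* (0.855 ± 0.120) without overlap.

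**Figure D2:**
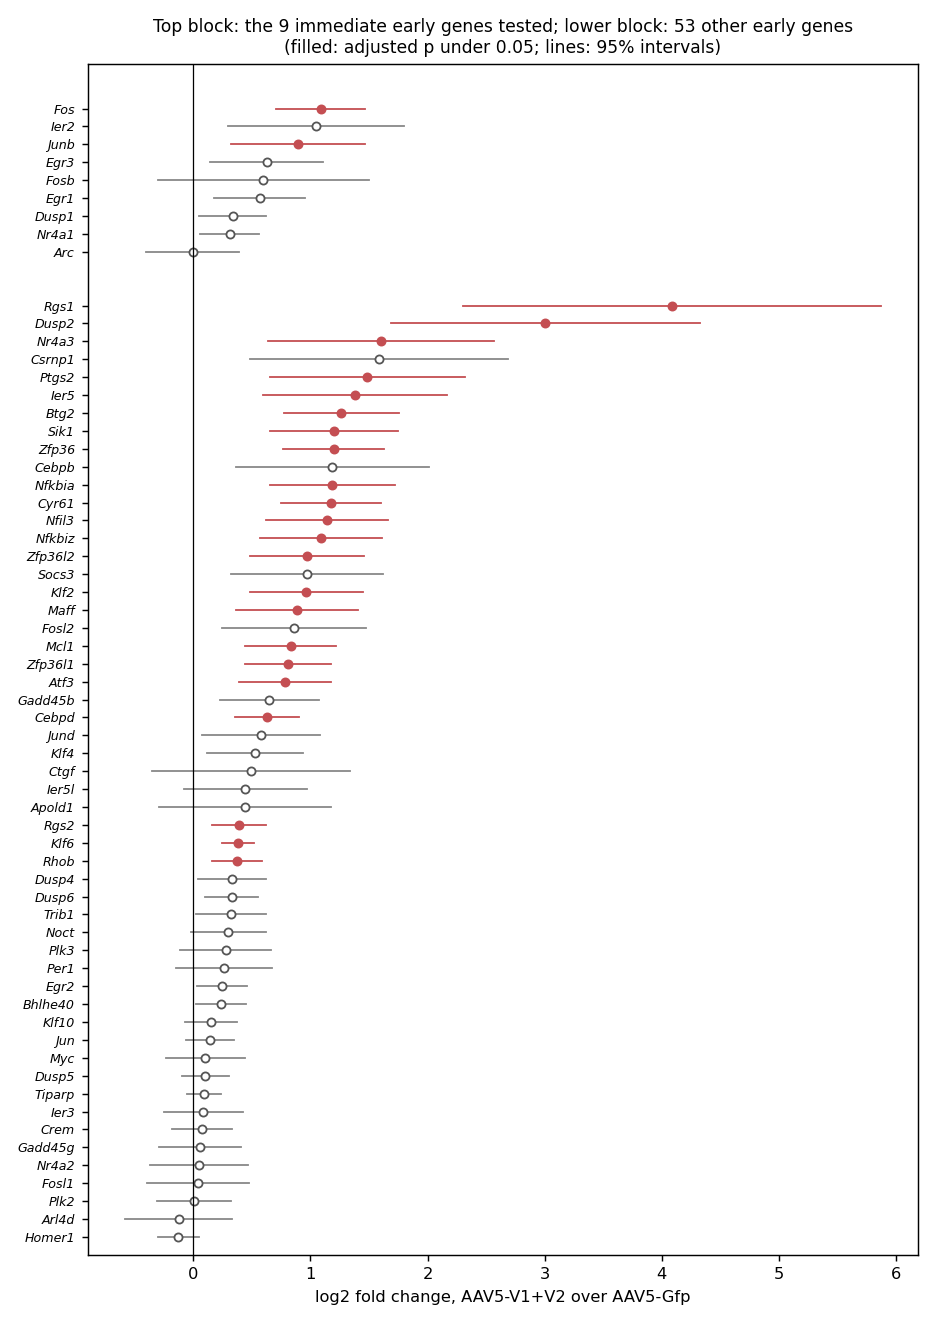
Log2 fold change of AAV5-*V1+V2* over AAV5-*Gfp*, with 95% intervals as lines, for the 9 genes tested (top block) and for 53 other early genes (lower block). Red filled points mark an adjusted p under 0.05, which *Fos* and *Junb* have above and 22 genes have below, all to the right of 0.

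Within groups, the libraries did not share 1 order. Among the AAV5-*Gfp* libraries, replicate 3 was the highest for 4 of the 9 genes and the lowest for 4 others, and replicate 2 was the highest for 3. *Junb* and *Egr3* were lowest in replicate 3, whereas *Fos* and *Nr4a1* were highest there. Among the AAV5-*V1+V2* libraries, replicate 3 was the lowest for 7 genes (all but *Arc* and *Nr4a1*), and replicate 2 was the highest for 6 and the lowest for 0. Replicate 1 was highest for *Junb* and *Ier2*.

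The median range between the highest and lowest library was 0.45 on the log2 scale in the controls and 0.38 with AAV5-*V1+V2*, beside 0.22 and 0.32 over all genes tested. Compared with genes of the same abundance in edgeR's fit, the variation between replicates was above the trend for 3 genes, *Fosb*, *Junb* (coefficient of variation 0.218, trend 0.157), and *Ier2*, and below it for 6, *Fos* (0.162, trend 0.194) among them. The range of *Fos* was 0.17 on the log2 scale with AAV5-*Gfp*, where only *Nr4a1* had a smaller range (0.13), and 0.55 with AAV5-*V1+V2*.

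**Figure D3:**
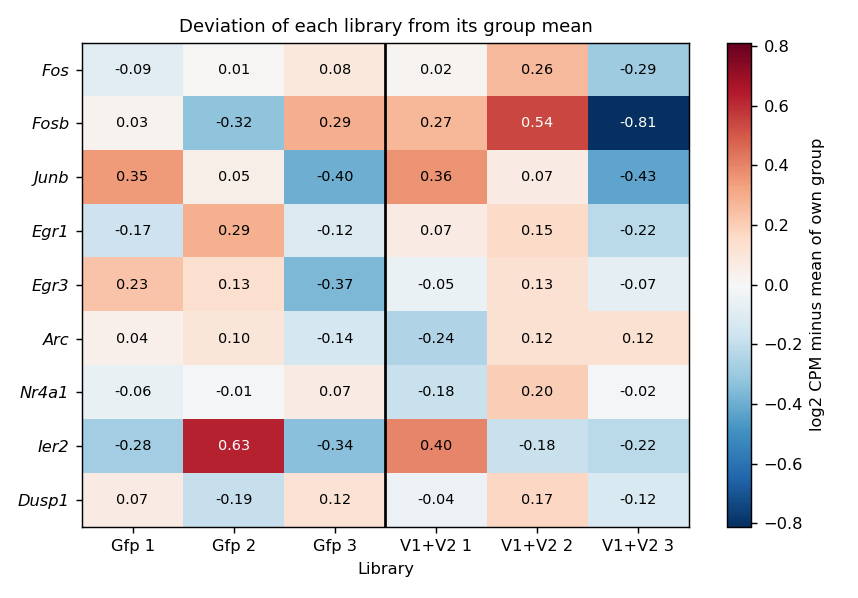
Log2 CPM of each library minus the mean of its own group, for the 9 genes tested (rows) in the 6 libraries (columns; red above, blue below the mean). AAV5-*V1+V2* replicate 3 is below its group mean for 8 genes and replicate 2 above it for 8, while the AAV5-*Gfp* libraries show no common direction.

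A list of 54 other early response genes gave the context, 53 of which were tested. Of these, 22 were higher and 0 lower with an adjusted p under 0.05, where 10.1% and 5.27% of all genes tested were. At an unadjusted p under 0.05, 0 were lower, and DESeq2 and limma-voom called 0 lower. For 36, every AAV5-*V1+V2* library lay above every AAV5-*Gfp* library, as for 23.4% of all genes tested. The median log2 fold change was 0.49, and the list was chosen with earlier results of these data known. The 8 with the smallest adjusted p included feedback genes that end the response. *Zfp36*, which encodes tristetraprolin, a protein that destabilizes early mRNAs, had a log2 fold change of 1.20 (SE 0.18), *Btg2*, an antiproliferative gene, of 1.26 (0.21), and *Nfkbia*, the inhibitor of NF-κB, of 1.19 (0.23). *Cyr61*, a secreted matrix protein, rose by 1.18 (0.18), *Cebpd*, a transcription factor of inflammation, by 0.63 (0.12), and *Klf6*, a zinc finger factor, by 0.38 (0.06).

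The remaining 2 of the 8 were nearly silent in the controls. *Rgs1*, a regulator of G protein signaling known from lymphocytes, had 6, 7, and 0 reads in the controls and 124, 72, and 33 with AAV5-*V1+V2*. *Dusp2*, a MAP kinase phosphatase of immune cells, had 11, 5, and 6 reads against 104, 46, and 33. These numbers are far apart between groups, with log2 fold changes of 4.08 (SE 0.76) and 3.01 (0.56). In a fit without any 1 AAV5-*Gfp* library, 0 genes of the list were called, and 11 genes of the list were called without AAV5-*V1+V2* replicate 2.

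The closest relatives of the 10 genes were set beside them after their values were seen. In the Jun family, *Jun* (log2 fold change 0.14, SE 0.09) and *Jund* (0.58, 0.21) were not called by edgeR, and in the Fos family neither were *Fosl1* (0.04, 0.19) and *Fosl2* (0.86, 0.26). DESeq2 called *Jund* and *Fosl2* higher, as did the fit with a replicate block for *Jund* and the fit without a filter on low counts for *Fosl2*. The fit without AAV5-*V1+V2* replicate 3 called *Fosl2* as well. *Atf3*, a partner of Jun that nerve injury induces in neurons, was higher (0.78, 0.17, adjusted p = 0.0269). *Nr4a3* was higher with a log2 fold change of 1.60 (0.41), whereas *Nr4a2* (0.05, 0.18) was not called. *Ier5* was higher (1.38, 0.33) and *Ier3* was not called (0.09, 0.14). *Egr2*, which myelinating Schwann cells also express, was at 0.25 (0.09) and not called, and *Egr4* had at most 2 reads in any library.

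Of 26 genes that carry signals to early promoters, 4 were higher and 2 lower (6 and 2 by DESeq2), beside 10.1% and 5.27% of all genes tested, with a median log2 fold change of 0.16. *Elk3* (0.77, SE 0.19) and *Elk4* (0.49, 0.10), partners of serum response factor, *Mef2c* (0.58, 0.13), and the kinase gene *Rps6ka1* (0.90, 0.17) were higher. *Elk1*, of the same family, was at 0.06 (0.09) and was not called. The kinase genes *Rps6ka2* (-0.40, 0.09) and *Rps6ka3* (-0.31, 0.08) were lower. *Creb1* itself was at 0.27 (0.09, adjusted p = 0.0794) and *Srf* at 0.33 (0.20, adjusted p = 0.274).

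Genes of the later response of neurons to activity held no call in edgeR's test. Of the 12 tested of 14, 0 were higher and 4 lower at an unadjusted p under 0.05, where 19.2% and 15.5% of all genes tested were. For 6, every AAV5-*V1+V2* library lay below every AAV5-*Gfp* library, as for 22% of all genes tested. DESeq2 called 2 lower and 0 higher, and limma-voom called 0. The median log2 fold change was -0.30, beside -0.31 for 15 markers of neurons. The part of the level of neuronal RNA in these values was not tested. *Sst* (somatostatin) was at -0.70 (SE 0.27), *Gpr3* at -0.37 (0.34), and *Inhba*, an activin subunit, at 0.54 (0.33), each with overlapping groups but *Sst*. Reads were few, at 15 to 37, 16 to 45, and 40 to 101 per library. *Scg2* (-0.37, 0.11) and *Nrn1* (-0.36, 0.13), which had more reads, lay below their controls in every library and were not called. The log2 fold change was above 0 for 2 of the 12. Of the heat shock genes, chaperones induced by heat and other stress, 1 of 14 was higher and 0 were lower. Among all genes tested, 10.1% were higher and 5.27% lower. The median log2 fold change of the heat shock genes was -0.05. The gene called was *Hspa5* (0.40, 0.07), a chaperone of the endoplasmic reticulum. *Hspa1a* was at 0.48 (0.20) and *Bag3* at -0.37 (0.13), and neither was called.

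Marker RNAs of several cell types differed between the groups along with these genes. In bulk RNA, more cells of a type and more RNA per cell cannot be told apart. Of all 18593 genes tested, 10.1% were higher and 5.27% lower by edgeR, and DESeq2 called 2405 higher and 1606 lower. Markers of macrophages (10 of 12 higher) summed to 223 to 312 CPM with AAV5-*Gfp* and 696 to 1864 CPM with AAV5-*V1+V2*. The largest parts of the latter were *Lyz2* (989, 418, and 272 CPM in replicates 1, 2, and 3) and *Ptprc* (362, 162, and 140 CPM). Whether their reads came from macrophages alone was not tested. Markers of T and B cells (11 of 12 higher) summed to 7.24 to 17.97 CPM with AAV5-*Gfp* and 241 to 353 CPM with AAV5-*V1+V2*. Of the latter, *Jchain* alone held 194, 181, and 169 CPM in replicates 1, 2, and 3. Markers of neurons (1 of 15 lower, 6 by DESeq2, and 0 higher with either) summed to 10941 to 11787 CPM with AAV5-*Gfp* and 7028 to 10197 CPM with AAV5-*V1+V2*. Fibroblast markers (3 of 8 higher, 5 higher and 1 lower by DESeq2) went from between 1433 and 1785 to between 2098 and 3026 CPM. Of these, *Thy1* lay below its controls in every library (log2 fold change -0.35, SE 0.11) and was not called by edgeR. Neutrophil markers (2 of 8 higher, 5 by DESeq2, and 0 by limma-voom) went from between 111 and 124 to between 156 and 315 CPM. Of 10 satellite glia markers, 2 were higher and 0 lower. Of 8 endothelial markers, 1 was higher and 1 lower. Among 10 Schwann cell and 8 mural cell markers, 0 were called. DESeq2 gave the same counts for these cell types. No marker of these lists was at 0 in all libraries.

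The sum of the 10 genes and the sums of these markers were set side by side in each library. The former was 54.0, 53.7, and 51.6 CPM with AAV5-*Gfp* and 79.1, 85.4, and 67.7 CPM with AAV5-*V1+V2*, in the order of the replicates. Macrophage markers summed to 1864, 968, and 696 CPM in AAV5-*V1+V2* replicates 1, 2, and 3. *Junb* (19.9, 16.2, and 11.5 CPM) and *Ier2* (3.01, 2.01, and 1.95 CPM) were in the same order. Replicate 2 was the highest for 6 of the 9 genes tested, among them *Fos* (8.54, 10.1, and 6.88 CPM) and the abundant *Nr4a1* (18.8, 24.4, and 21.1 CPM). The sum of the other early genes was in the order of the macrophage markers, with 992, 903, and 819 CPM. Of its 22 called genes, 18 were highest in replicate 1. This order was not particular to macrophage markers. It was shared by those of T and B cells (353, 261, and 241 CPM) and fibroblasts (3026, 2333, and 2098 CPM). Neuron markers had the reverse order (7028, 9730, and 10197 CPM), and neutrophil markers had neither (315, 156, and 163 CPM). Without AAV5-*V1+V2* replicate 1, *Fos* had a log2 fold change of 1.09 (adjusted p = 0.0107 by edgeR's test) and *Junb* of 0.70 (adjusted p = 0.0903). The part of infiltrating or resident cell types in the early genes was not tested.

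**Figure D4:**
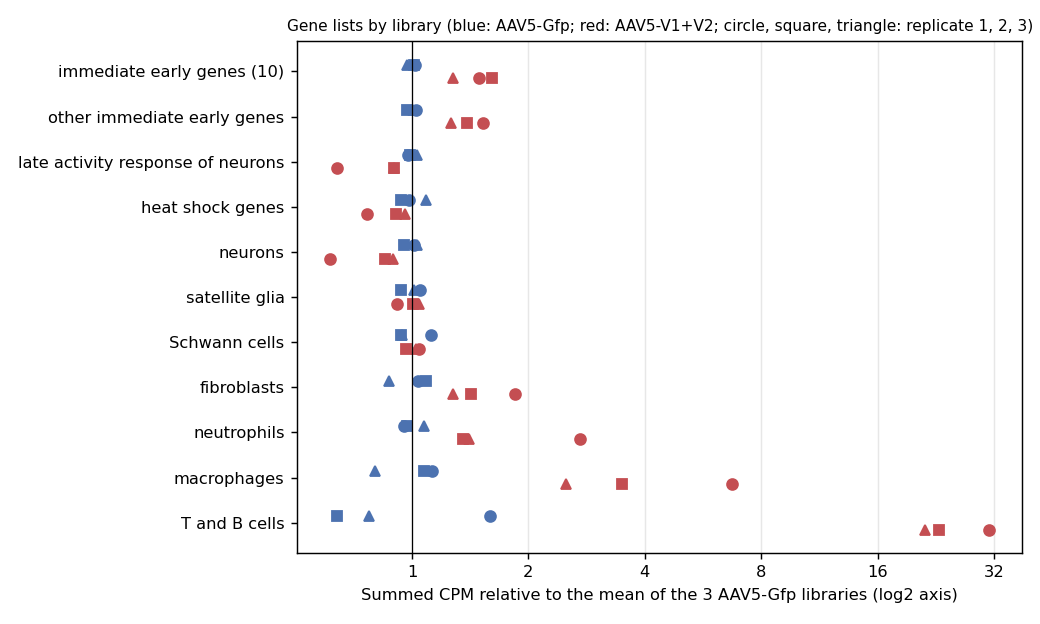
Summed CPM of each gene list in each library, relative to the mean of the 3 AAV5-*Gfp* libraries, on a log2 axis (blue, AAV5-*Gfp*; red, AAV5-*V1+V2*; circle, square, and triangle for replicates 1, 2, and 3). The 10 immediate early genes reach 1.27 to 1.61 times the control mean, neurons 0.61 to 0.89 times, and macrophages 2.51 to 6.71 times.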

How the data were processed

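Total RNA of mouse DRGs had been made into libraries with the TruSeq Stranded Total RNA kit. The authors deposited read counts per gene, as whole numbers without normalization, for 6 libraries. GRCm38 and mm10 are named in the submitters' processing notes, and the aligner, the counter, and the annotation are not given in the sources used here. Counts were filtered with filterByExpr, scaled by TMM, and tested with edgeR 4.0.16 (glmQLFit and glmQLFTest, R 4.3.3, limma 3.58.1), with Benjamini-Hochberg adjustment and a threshold of 0.05. DESeq2 1.42.0 and limma-voom were alternatives. The scripts were tested on simulated data. CPM per kb used the union of GENCODE M21 exons, and intervals at a level of 95% are those of the fit. The genes and lists were chosen with earlier results of these data known. All 10 genes were named. From the lists of other early, signaling, late activity, and heat shock genes, called genes were named up to 8 per list, smallest adjusted p first, and where fewer than 3 were called, those with the largest absolute log2 fold change until 3 were named. The genes closest in pattern were the 5 whose within-group deviations in log2 CPM had the smallest root mean square difference from the mean deviations of the 9 genes tested, among genes with a mean log2 CPM of at least 1. Alternatives were other scaling factors, filters, tools, a replicate block, and each library left out.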

Additional observations from a re-analysis of the deposited data

How the results depend on the processing

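The number of the 9 genes higher with AAV5-*V1+V2* (2) was the same with RLE factors, total counts, no filter on low counts, or a filter of 1 CPM. It was 1 with upper quartile factors, 1 with limma-voom, and 1 with robust empirical Bayes (*Fos* in each), 4 with DESeq2 (*Egr1*, *Fos*, *Ier2*, and *Junb*), and 6 at an adjusted p under 0.1. Leaving out each library in turn gave 0 to 3 for these genes and 0 to 27 for the other early genes (22 with all libraries, 11 without AAV5-*V1+V2* replicate 2). Both counts were 0 without any 1 AAV5-*Gfp* library, where 5 to 7 of the 9 genes were still higher at an unadjusted p under 0.05, and without AAV5-*V1+V2* replicate 2 only *Fos* was called. The cause was not tested. Counts of lower genes were 0 in every alternative. *Arc* changed sign with total counts (0.051) and ranged from -0.073 to 0.111 when each library was left out. With the replicate number as a block, 3 genes were higher, *Egr1* (0.57, adjusted p = 0.0295 by edgeR's test) in addition, and 25 of the other early genes. Deviations of same-numbered libraries correlated at 0.0403, 0.0615, and 0.0968 across genes, and those of the other pairs between -0.0841 and 0.0291. Each AAV5-*Gfp* library thus correlated best with its own number. All these values are weak, and with so few libraries a pairing cannot be read from them. No source gives the numbers a meaning. Depth limits *Npas4* most.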

Other observations

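The mean deviation of the 9 genes from their group mean was 0.16 on the log2 scale in AAV5-*V1+V2* replicate 2 and -0.23 in replicate 3, against 0.01, 0.08, and -0.09 in AAV5-*Gfp* replicates 1, 2, and 3. The 5 genes whose deviations over the 6 libraries were nearest to this pattern were *Gm37352* (root mean square difference 0.0170 on the log2 scale), *Ahr*, the aryl hydrocarbon receptor (0.0260), *Slc30a1*, a zinc exporter (0.0276), *Fbxl6* (0.0292), and *Rpl27a*, a ribosomal protein gene (0.0307), where the median of 14726 genes was 0.170. Of these, *Slc30a1* was called higher (log2 fold change 0.48, adjusted p = 0.0459 by edgeR's test) and the other 4 were not called. The likeness is a description over 6 libraries of close depth, whose levels of cell type markers differed.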
